A study of Mus musculus with 56 samples.

Results

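The PL livers, from mice carrying 1 copy each of the 446P and 446L forms of Gckr, the gene of the glucokinase regulatory protein (GKRP), were set against the midpoint of the PP and LL homozygotes. The question was which transcripts of the heterozygote lay above or below the level halfway between the homozygotes, and which lay outside both. All libraries of the series entered except PP mouse 7, which left 55 of 56 livers, of which 16 were PL and 39 were PP or LL. A gene that simply followed the number of 446L copies on the log2 scale would have a deviation of 0. Of 52230 genes with a transcript, 11477 passed the filter on low counts and were tested.

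GKRP holds glucokinase (GK), the enzyme that commits glucose to metabolism in hepatocytes, in the nucleus in an inactive complex, and releases it after a meal. The proline to leucine change at residue 446 is a common human variant that is associated with higher blood triglycerides. The hepatocyte also makes cholesterol from acetyl-CoA through mevalonate and squalene, and the genes of this route are switched on together by the transcription factor SREBP-2 when sterol in the endoplasmic reticulum (ER) is low.

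The mice were males of the knock-in line GCKR-P446L-EMI-B6N, in which codon 446 of the mouse gene was altered in every tissue, and PP was the wild-type genotype. All were culled at 28 weeks of age after 20 weeks on a high-fat high-sugar diet (45% fat, 20% protein and 35% carbohydrate, with 10% glucose and 5% fructose in the drinking water), the last 2 hours without food. The groups without further treatment were PP (n = 9, after mouse 7 was left out), PL (n = 8) and LL (n = 10). The groups that also received a glucokinase activator (GKA, 3 mg/kg) were PP (n = 10), PL (n = 8) and LL (n = 10). The lobe sampled holds cells of several kinds, so that fewer cells of a type and less RNA per cell cannot be told apart.

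Libraries held between 5189852 and 8093368 reads, with a median of 6559023. The study left mouse 7 out of its analyses because a heatmap set its expression apart from that of the other mice. Here it had 320 genes more than 4-fold away from the mean of the other PP mice. No such count is given for another mouse, so that this number alone does not set mouse 7 apart. Its inclusion gave 46 called genes in place of 45. Of the markers of other cells, those of skeletal muscle summed to at most 0.51 CPM (a gene's count scaled to the size of its library) in PL and 0.795 in the homozygotes. Macrophage markers ranged from 68.4 to 503 CPM in PL and from 118 to 306 in the homozygotes, with medians of 186 and 193. B cell markers reached 56.0 CPM in PL and 29.8 in the homozygotes (medians 15.4 and 10.5), and both of those tested were above the midpoint, with a median deviation of 0.53. Stellate cell markers had medians of 142 and 164 CPM, with 5 of 6 below the midpoint, and bile duct markers medians of 15.0 and 18.3 CPM, with a median deviation of -0.42 over the 2 tested. No marker of these lists passed the test. Hepatocyte markers had medians of 96080 CPM in PL and 101100 in the homozygotes. The part of these markers in the results was not tested.

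Gckr itself did not depart detectably from the midpoint. Its levels without GKA were from 151 to 230 CPM in PP (median 175), from 145 to 218 in PL (median 167) and from 130 to 193 in LL (median 144). The groups overlapped, and the deviation of PL was 0.06 ± 0.06 (log2, SE; adjusted p = 0.791 in the edgeR quasi-likelihood test, n = 16 PL and 39 homozygotes).

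Across the 11477 genes, 45 (0.392%) departed from the midpoint at an adjusted p below 0.05, of which 34 (0.296%) were above and 11 (0.0958%) below. The calls above were led by genes of cholesterol synthesis, which were 13 of the 34. With the scaling and test of DESeq2 the calls were 51 above and 35 below, and 42 of the 45 were among them. Upper-quartile scaling kept 44, mouse 7 included 43 and 3 genotype groups 41. Some settings kept fewer, 11 with counts corrected for transcript length and 26 with a covariate drawn from clock genes. The number was 27 with no filter on low counts and 27 with limma on CPM without logs. Over fits that each left out 1 mouse, 19 were called every time. In the main fit 561 genes were above (4.89%) and 631 below (5.5%) at an unadjusted p below 0.05. With no difference 574 in all would be expected. Among the called genes, 21 of those above and 3 of those below reached a fold of 1.3 or 0.7. For every called gene the PL estimate also lay outside both homozygote estimates. Among all genes tested 32.26% lay above both, 33.87% below both and 33.88% between them. The called genes were chosen by the same estimates, which favours a place outside both, so that their position is a description and not a test.

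**Figure D1:**
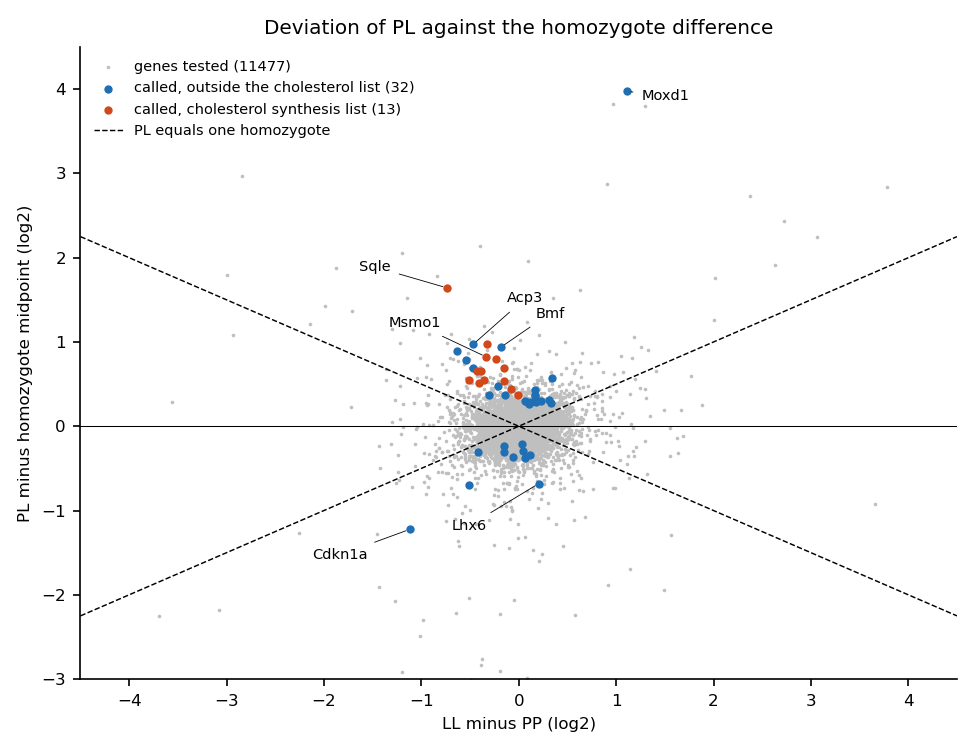
Each point is a gene, plotted by LL minus PP (log2, horizontal) and by PL minus the homozygote midpoint (log2, vertical), with 8 genes beyond the axes. On the dashed lines PL equals a homozygote, and the 45 called genes, orange for the cholesterol synthesis list and blue for others, lie above both lines (34) or below both (11).

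The mevalonate and cholesterol synthesis list held 21 genes, all tested, with a median deviation of 0.54 (log2) against -0.002 over all genes. Of its members 13 were above the midpoint past the test and none below, beside 0.296% and 0.0958% of all genes, and 19 of 21 lay above both homozygote estimates. The earliest step to be called was Mvk, mevalonate kinase, and the latest was Dhcr7, which makes the final reduction to cholesterol.

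Msmo1, a methylsterol oxidase that removes methyl groups from the sterol ring, had the smallest p of all genes. Without GKA it ranged from 30.6 to 61.4 CPM in PP (median 35.8), from 32.4 to 68.3 in PL (median 50.5) and from 22.7 to 39.6 in LL (median 27.2). With GKA it ranged from 22.1 to 56.3 in PP (median 35.8), from 23.5 to 118 in PL (median 73.9) and from 24.5 to 42.8 in LL (median 30.0). The PL median was the highest of the 3 genotypes in both treatments, the groups overlapped, and 5 of 16 PL mice exceeded every homozygote. The deviation was 0.82 ± 0.12 (1.77-fold, adjusted p = 0.000194), and 13 of 16 PL mice were above the midpoint. Here and for the genes that follow, counts of PL mice past the midpoint or past every homozygote use the mice that chose the gene. They describe the spread and add no support to the call.

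Idi1, the isomerase that makes the reactive isoprene unit, followed the same order of medians. Without GKA these were 30.4 CPM in PP, 33.4 in PL (15.8 to 58.9) and 19.5 in LL. With GKA they were 26.3 in PP, 61.7 in PL (15.7 to 128) and 23.1 in LL. Of the PL mice 7 of 16 lay above every PP and LL mouse, while the lowest PL mice were within the range of the homozygotes. PL was 0.98 ± 0.16 above the midpoint (adjusted p = 0.000697).

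Sqle, squalene epoxidase, which catalyses the first oxygen-requiring step, had the largest deviation among the called genes of the list. Its medians without GKA were 4.27 CPM in PP (0.717 to 11.9), 9.17 in PL (2.72 to 15.2) and 1.71 in LL (0.422 to 6.18). With GKA they were 5.18 in PP (0.96 to 10.3), 15.5 in PL (1.57 to 57.5) and 4.10 in LL (1.85 to 11.1). PL had the highest median in each treatment, with overlap between groups. Its deviation was 1.64 ± 0.29 (3.12-fold, adjusted p = 0.00139), and 14 of 16 PL mice were above the midpoint.

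Fdft1, squalene synthase, departed by 0.54 ± 0.09 (adjusted p = 0.00126), with a PL median of 42.3 CPM without GKA (25.0 to 50.0) and 57.2 with it (28.8 to 96.6). Its PP medians were 36.8 and 34.8 and its LL medians 31.9 and 31.3. Mvk was 0.69 ± 0.12 above (adjusted p = 0.00126), with PL medians of 5.80 and 7.94 CPM against 4.51 and 4.44 in PP and 3.70 and 4.14 in LL. Nsdhl, the sterol dehydrogenase that acts with Msmo1, was 0.80 ± 0.15 above (adjusted p = 0.00201), with PL medians of 25.9 and 38.9 CPM against 21.0 and 21.5 in PP and 15.2 and 19.4 in LL. In these 3 genes too the PL median was the highest in each treatment, and between 4 and 6 PL mice exceeded every homozygote.

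**Figure D2:**
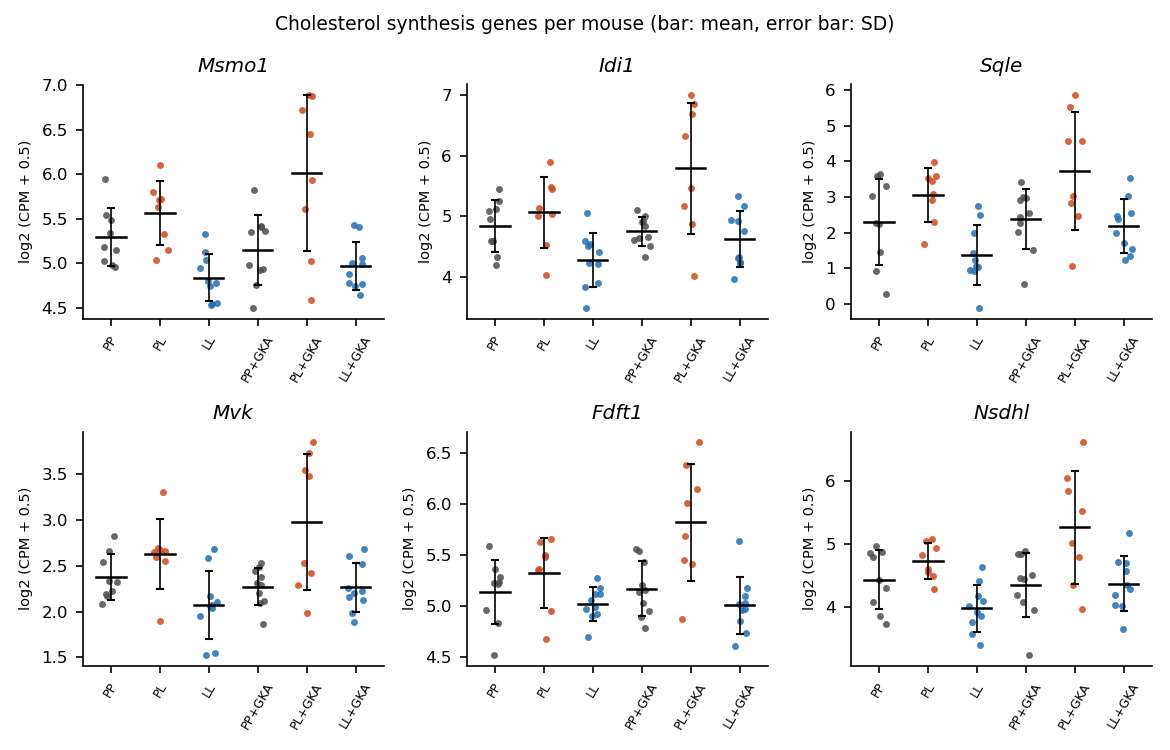
Levels of 6 cholesterol synthesis genes, as log2 (CPM + 0.5), in each mouse of the 6 groups, with mean and SD. The PL mice with GKA reach the highest values and spread most widely, as for Sqle, whose CPM ran from 1.57 to 57.5 in that group.

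Further along the route, Cyp51, the lanosterol demethylase, was above the midpoint by 0.65 ± 0.13 (adjusted p = 0.00753) and Dhcr7 by 0.54 ± 0.11 (adjusted p = 0.00978). The other called members were Fdps (0.66), Lss (0.51), Pmvk (0.54), Tm7sf2 (0.44) and Hsd17b7 (0.37), in log2 units above the midpoint. Without 1 mouse the call was lost in 25 of 55 fits for Pmvk, 23 for Tm7sf2, 12 for Hsd17b7, 6 for Lss and 1 for Fdps. Of the other members, the synthase Hmgcs1, named for its place at the start of the route, was 0.36 above the midpoint and did not pass (adjusted p = 0.387), and Ggps1, which leads away from sterols to longer isoprenoids, was the single member below it (-0.04).

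Acss2, which makes acetyl-CoA from acetate and belongs to the lipogenesis list, was 0.79 ± 0.17 above the midpoint (adjusted p = 0.0143), with 15 of 16 PL mice above it; its PL medians were 160 and 239 CPM against 99.8 and 133 in PP and 91.7 and 90.8 in LL. It was the single call of 14 genes of that list, whose median was 0.07, and was not called without PL mouse 32, given GKA (adjusted p = 0.0773 in edgeR), with the length correction (0.0606) or with limma on CPM (0.0595). Fasn, the fatty acid synthase, had a deviation of -0.18 (adjusted p = 0.877). Among 8 genes of sterol regulation no deviation passed the test and the median was 0.23. Stard4, a carrier of cholesterol between membranes, was nearest (0.26 ± 0.07, adjusted p = 0.0609), and Insig2, a retention protein of the SREBP complex, had a value of -0.40 ± 0.13 (adjusted p = 0.177). Npc1, which exports cholesterol from lysosomes, was called above the midpoint by 0.28 ± 0.07 (adjusted p = 0.0407), and was also higher in LL than in PP by 0.33 (adjusted p = 0.00405). The call of Npc1 was lost in 19 of the 55 fits without a mouse.

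The regions upstream of the called sterol genes are shown for 4 of them because these genes moved together. Each sequence is the 250 bases before the start of transcription in RefSeq (GRCm38.p6), read 5′ to 3′ along the gene, and the capitals mark CCAAT, the box bound by NF-Y, or ATTGG, the same box on the other strand. In Nsdhl the first run of capitals marks TCACNCNAC, a pattern like the sterol regulatory element. The windows are chr8:64733579-64733828 (minus strand) for Msmo1, chr13:8885356-8885605 (plus) for Idi1, chr5:114444019-114444268 (plus) for Mvk and chrX:72918271-72918520 (plus) for Nsdhl.
Msmo1: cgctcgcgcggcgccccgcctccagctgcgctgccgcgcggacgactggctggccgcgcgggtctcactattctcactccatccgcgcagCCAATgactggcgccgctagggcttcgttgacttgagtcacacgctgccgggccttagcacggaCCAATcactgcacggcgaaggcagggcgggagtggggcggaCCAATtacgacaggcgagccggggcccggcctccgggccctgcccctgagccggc
Idi1: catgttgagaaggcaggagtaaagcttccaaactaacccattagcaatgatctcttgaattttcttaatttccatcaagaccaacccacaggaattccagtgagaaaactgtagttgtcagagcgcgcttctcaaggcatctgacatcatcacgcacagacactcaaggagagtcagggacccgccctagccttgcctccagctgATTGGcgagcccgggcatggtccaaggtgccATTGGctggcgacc
Mvk: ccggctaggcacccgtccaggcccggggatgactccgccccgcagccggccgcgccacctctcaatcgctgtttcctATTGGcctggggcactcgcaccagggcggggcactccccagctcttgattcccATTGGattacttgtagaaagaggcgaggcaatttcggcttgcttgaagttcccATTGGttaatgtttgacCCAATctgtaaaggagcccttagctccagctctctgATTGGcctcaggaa
Nsdhl: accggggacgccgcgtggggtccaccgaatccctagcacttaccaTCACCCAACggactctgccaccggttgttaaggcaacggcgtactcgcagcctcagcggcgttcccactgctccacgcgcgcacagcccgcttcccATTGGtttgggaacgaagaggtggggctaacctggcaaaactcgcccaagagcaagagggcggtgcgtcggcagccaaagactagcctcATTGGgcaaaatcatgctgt

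The Mvk window shares 241 bases with that of Mmab, an adenosyltransferase of cobalamin metabolism read from the opposite strand, and Mmab was also called above the midpoint (0.37 ± 0.09, adjusted p = 0.0282; lost in 7 of the 55 fits without a mouse). The CCAAT box, on either strand, was found in 15 of the 16 genes of the cholesterol list with a promoter in the table and in 9 of 15 other genes called above, beside 40.9% of tested genes and 37.5% of all 27025 genes with one. The pattern TCACNCNAC was found in 2 of the 16, Hmgcs1 and Nsdhl, beside 2.9% of tested genes. A comparison of these shares is void, since promoters were at hand for 76.2% of the cholesterol list and 73.5% of the genes called above, under the 80% required. Sqle and Fdft1 had none.

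With GKA and without it the departure had the same sign in all 45 called genes, which the averaging in the test favours. Without GKA no gene was called (0%) and 28 of the 34 genes above and 11 of the 11 below had an unadjusted p below 0.05 in that direction, beside 296 (2.58%) and 305 (2.66%) of all genes. With GKA 17 genes were called (0.148%), 16 above and 1 below. All 34 and all 11 had an unadjusted p below 0.05 in their direction there, beside 479 (4.17%) and 455 (3.96%) of all genes. The 45 genes were called from the average over both treatments, which favours a small p in each treatment as well as the sign. The counts of small p, with GKA and without it, therefore describe the called genes and add no support to the calls. The difference between the deviations with and without GKA was called for no gene (0%), with 329 at an unadjusted p below 0.05 in edgeR and 1 call in DESeq2, so that a difference by treatment was not detectable.

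For the cholesterol list the median deviation was 0.27 without GKA, where 9 of 21 genes had an unadjusted p below 0.05, and 0.72 with GKA, where 19 did. Msmo1 had deviations of 0.51 without GKA and 1.14 with it, Fdft1 0.27 and 0.81, and Pmvk 0.23 and 0.86. The unadjusted p of the difference was 0.0181, 0.00659 and 0.0241 for these 3 genes, and none passed the adjustment. The mean log2 CPM of the list per mouse was 5.13 ± 0.23 in PL without GKA (SD, n = 8, from 4.78 to 5.39) and 5.54 ± 0.65 with it (n = 8, from 4.46 to 6.41), against means of 5.04, 5.04, 4.58 and 4.80 in PP, PP with GKA, LL and LL with GKA. The PL mice with GKA held the highest levels of any mouse, and the lowest of them was within the range of LL. Without PL mouse 31 or 32, both given GKA, the calls numbered 27 and 28, of which 9 and 8 were of the list, and without PL mouse 25 they numbered 29. Over the 55 fits that each left out 1 mouse, 19 of the 45 genes were called every time, among them Msmo1, Idi1, Fdft1, Mvk, Sqle, Nsdhl, Cyp51 and Dhcr7. With counts corrected for transcript length Msmo1 (0.49, adjusted p = 0.213 in edgeR), Mvk (0.48, adjusted p = 0.133) and Dhcr7 (0.40, adjusted p = 0.574) were not called, while Idi1, Fdft1, Sqle, Nsdhl and Cyp51 were.

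**Figure D3:**
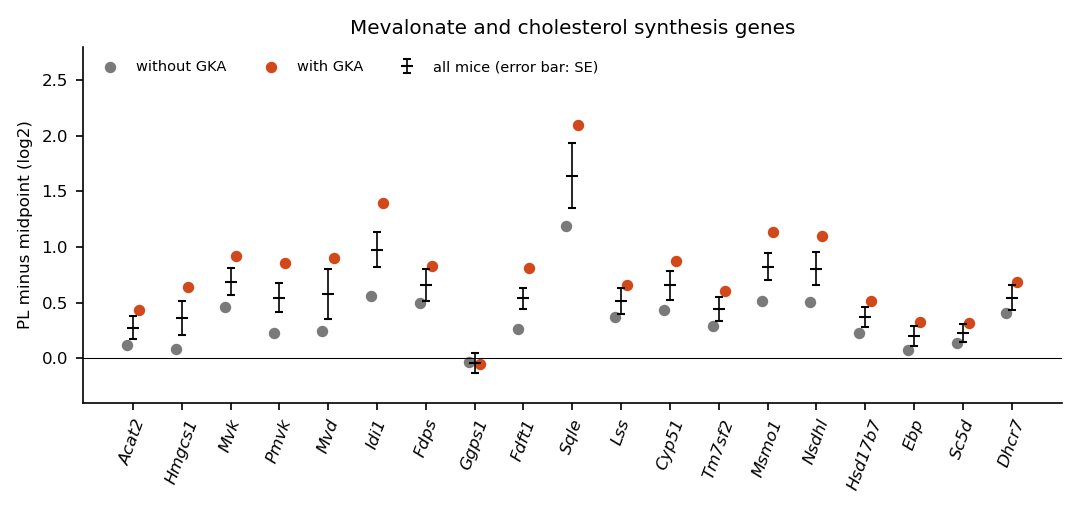
PL minus the homozygote midpoint (log2) for 19 genes of the list in pathway order, without GKA (grey), with GKA (orange) and over all mice (bar with SE). With the exception of Ggps1 each gene was higher with GKA than without, and the largest values were those of Sqle, 1.19 and 2.09.

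The 2 treatments share no mice, so each can be read against the other. Of the 50 genes with the smallest p without GKA, 19 were above the midpoint. In the mice given GKA 18 of these were again above it, beside 50.3% of all genes. An unadjusted p below 0.05 was reached by 11 of them, beside 4.17%. The other 31 were below, and of these 27 were below it with GKA, beside 49.7%, and 4 had such a p, beside 3.96%. Of the 16 genes called above with GKA, 15 were above without it, beside 48.2%, and 10 with an unadjusted p below 0.05, beside 2.58%. The 16 included Msmo1, Idi1, Fdft1, Mvk, Sqle and Nsdhl, members of 1 route that can move together. The gene called below with GKA, Mtnr1a, the melatonin receptor, had a deviation of -0.84 with GKA and 0.07 without it. It is named after its values were seen, as are Fabp5 and Cnot10, whose deviations were 2.48 and 0.39 with GKA and 0.01 and -0.01 without it.

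Outside the sterol route, Bmf, a pro-apoptotic protein of the BCL2 family, had PL medians of 7.91 CPM without GKA (4.36 to 11.2) and 7.25 with it (3.13 to 11.0). Its PP medians were 4.36 and 3.89 and its LL medians 3.21 and 3.27. PL was high in both treatments, with 15 of 16 PL mice above the midpoint and 7 above every homozygote, and the deviation was 0.94 ± 0.16 (adjusted p = 0.00126; 0.95 without GKA and 0.93 with it).

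Gjb2, the gap junction protein connexin 26 of hepatocytes, had PL medians of 169 CPM in both treatments (135 to 220 and 152 to 206), against 138 and 126 in PP and 146 and 150 in LL. All genotypes overlapped, and PL was 0.29 ± 0.05 above the midpoint (adjusted p = 0.00141). Plpp3, a lipid phosphate phosphatase of the cell surface, had PL medians of 98.0 and 98.4 CPM, against 74.9 and 80.3 in PP and 83.4 and 94.4 in LL, a deviation of 0.30 ± 0.06 (adjusted p = 0.00997). Cry2, a repressor of the circadian clock, had PL medians of 22.8 and 21.9 CPM, against 15.9 and 15.7 in PP and 19.5 and 16.1 in LL, and its deviation was 0.37 ± 0.08 (adjusted p = 0.0104). Corrected for transcript length, Bmf (1.12, adjusted p = 0.119), Gjb2 (0.25, adjusted p = 0.166), Plpp3 (0.26, adjusted p = 0.159) and Cry2 (0.38, adjusted p = 0.0973) were not called in edgeR.

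Junb, an AP-1 subunit induced early after a stimulus, was 0.69 ± 0.17 above (adjusted p = 0.0489), the single call of 13 immediate early genes tested. It was lost in 37 of the 55 fits without a mouse, and with no filter, the length correction, the clock covariate, limma and 3 groups (adjusted p from 0.0793 to 0.161). Moxd1, a monooxygenase-like protein, had a fitted deviation of 3.97 ± 0.80 (adjusted p = 0.00753), but its medians were at most 0.24 CPM in every group and 7 of 16 PL mice were above the midpoint. The highest mice were at 153 CPM in PL with GKA, 43.4 in PL and 67.4 in LL, and the gene was not called in DESeq2 (adjusted p = 0.146) or on CPM without logs (limma, adjusted p = 0.348). Nor was it called without PL mouse 31, given GKA (adjusted p = 0.0662 in edgeR).

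Further calls above the midpoint, chosen by no rule, included Pim1 (0.48), Fmn1 (0.89), Slc38a3 (0.43), Inf2 (0.36), Nr2f2 (0.31), Tlcd1 (0.36), Gnat1 (0.57), Spns2 (0.26), Acp3 (0.97) and 1 gene without an established name. Of these, Acp3 lost its call in 41, Spns2 in 37, Gnat1 in 26 and Tlcd1 in 21 of the 55 fits without a mouse. The others named lost theirs in at most 8. Other settings cost more calls. Of all 34 genes called above, 9 kept their call with the length correction, Idi1, Fdft1, Sqle, Nsdhl and Cyp51 among them. Limma on CPM kept 21, no filter 22 and the clock covariate 24, and each remaining setting at least 30. The losses of the genes named here in these settings are not given. Slc38a3, the glutamine transporter of pericentral hepatocytes, and Gnat1 were above the midpoint in 16 of 16 PL mice. Just inside the threshold were Spns2 and Acp3, with adjusted p of 0.049 and 0.0492 in edgeR, and just outside it were Hspa8, Csrnp1 and Fbxo21, all at 0.0512.

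Below the midpoint the calls were Ap3s1, Srsf10, Sh3bgrl, Lhx6, Slc5a3, Kdsr, Cdkn1a, Ubfd1, Hsp90ab1, Nup62 and mt-Rnr2. Between 14 and 16 of the 16 PL mice were below the midpoint in each, which the choice of these genes by the same mice favours. Cdkn1a, the cell cycle inhibitor p21, had the lowest value. Without GKA it ranged from 6.33 to 19.5 CPM in PP (median 14.2), from 0.786 to 12.5 in PL (median 4.09) and from 1.12 to 11.2 in LL (median 3.96). With GKA the medians were 9.62 in PP, 2.62 in PL (1.34 to 4.38) and 5.16 in LL. PP was high, and PL was close to LL without GKA and lower than it with GKA. The deviation was -1.22 ± 0.28 (adjusted p = 0.028), beside a difference of -1.12 between LL and PP (adjusted p = 0.0106). The call was lost in 5 of the 55 fits without a mouse (PL mice 26, 28, 31, 32 and 33) and with a clock covariate (adjusted p = 0.125 in edgeR), no filter on low counts (0.0679) and limma on CPM (0.0588).

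Ap3s1, a subunit of the AP-3 adaptor that sorts proteins to lysosomes, had PL medians of 14.8 and 14.1 CPM (11.9 to 20.7 and 10.8 to 17.0) against 18.6 and 17.3 in PP and 19.9 and 19.6 in LL. PL was the lowest genotype in both treatments, by -0.35 ± 0.07 from the midpoint (adjusted p = 0.0063). Sh3bgrl, a small thioredoxin-like protein, departed by -0.21 ± 0.05 (adjusted p = 0.014), with PL medians of 54.5 and 52.2 CPM against 60.7 and 62.0 in PP and 61.4 and 66.3 in LL. Kdsr, a reductase of ceramide synthesis, departed by -0.37 ± 0.09 (adjusted p = 0.0254), with PL medians of 9.75 and 10.1 CPM against 11.7 and 12.3 in PP and 13.1 and 13.7 in LL. With the length correction the deviations were -0.15 for Ap3s1, -0.30 for Sh3bgrl and -0.03 for Kdsr, none of them called (adjusted p = 0.58, 0.452 and 0.971 in edgeR), and Kdsr was also not called with the clock covariate or limma.

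Srsf10, a splicing regulator, had a deviation of -0.30 ± 0.06 (adjusted p = 0.00837) and Lhx6, a homeobox factor, one of -0.68 ± 0.15 (adjusted p = 0.0151). With the clock covariate neither was called (adjusted p = 0.0707 and 0.161 in edgeR). Slc5a3, the myo-inositol transporter, had PL medians of 1.56 and 1.60 CPM against 3.06 and 2.85 in PP and 2.04 and 2.05 in LL (-0.69 ± 0.16, adjusted p = 0.0251), and its transcripts overlap those of Mrps6 on the same strand. Ubfd1, a ubiquitin-binding protein, had PL medians of 14.7 CPM in both treatments against 22.7 and 20.2 in PP and 16.2 and 15.6 in LL (-0.31 ± 0.07, adjusted p = 0.0282), and its sign turned, to 0.17, when counts were corrected for transcript length. Nup62, of the nuclear pore, departed by -0.37 ± 0.09 (adjusted p = 0.0313), and mt-Rnr2, the large mitochondrial ribosomal RNA, by -0.29 ± 0.07 (adjusted p = 0.0432). The call of mt-Rnr2 was lost in 29 of the 55 fits without a mouse, and in 6 of 8 other settings, upper-quartile scaling among them (adjusted p from 0.0556 to 0.112 in edgeR and limma). Those of Slc5a3, Ubfd1 and Nup62 were lost in 4, 6 and 8 fits, and with the length correction and the clock covariate. Of the 11 genes below, 5 kept their call with no filter, 2 with the length correction and 2 with the clock covariate. The losses named gene by gene are therefore not complete.

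**Figure D4:**
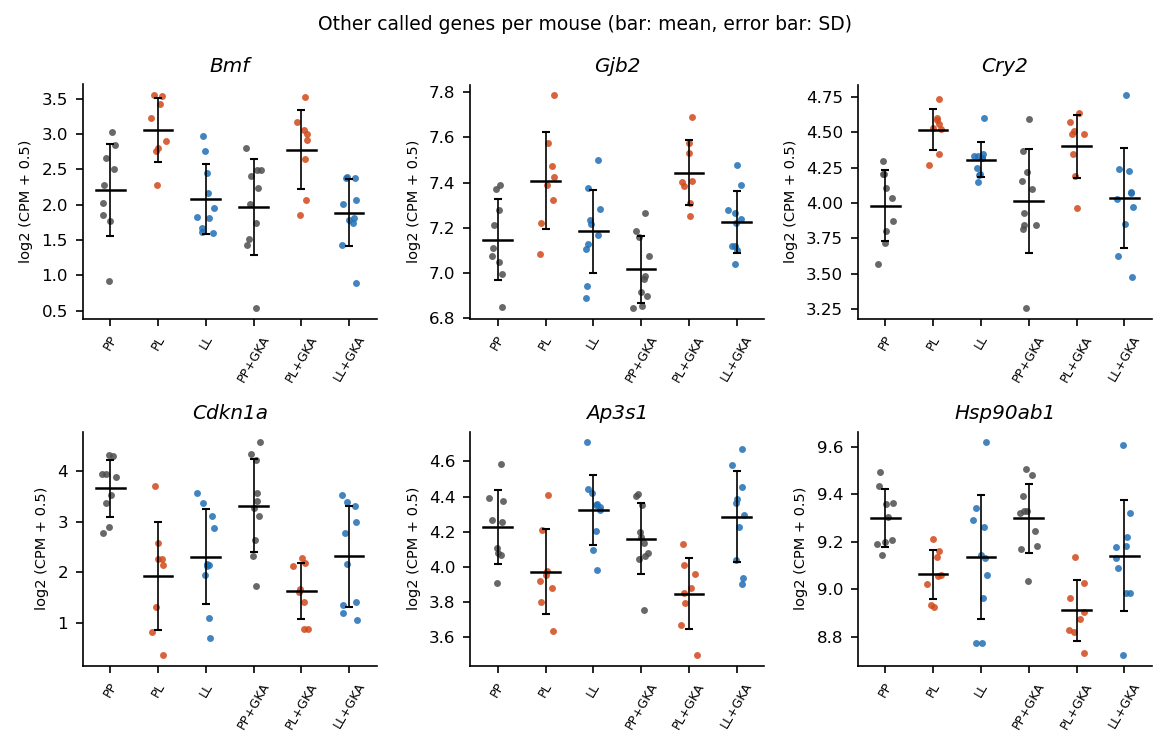
Levels of 6 further called genes, as log2 (CPM + 0.5), in each mouse of the 6 groups, with mean and SD. PL sits above both homozygotes for Bmf, Gjb2 and Cry2 and below both for Ap3s1 and Hsp90ab1, with overlap between groups in each. For Cdkn1a the medians of PL and LL without GKA were close, 4.09 and 3.96 CPM.

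Hsp90ab1, a constitutive cytosolic chaperone, was the called member of the heat shock list. It had PL medians of 532 and 474 CPM (486 to 592 and 425 to 563), against 631 and 641 in PP and 562 and 570 in LL, and 16 of 16 PL mice were below the midpoint, by -0.24 ± 0.06 (adjusted p = 0.0307). The call was lost in 7 of the 55 fits without a mouse, and with no filter, the length correction and the clock covariate (adjusted p = 0.105, 0.731 and 0.116 in edgeR). Of 20 heat shock genes tested, 1 was below the midpoint past the test and none above, 14 had an unadjusted p below 0.05 below the midpoint, and the median was -0.27. Of all genes 0.0958% were called below and 5.5% had such a p. Hspa8, the constitutive HSP70, had a value of -0.32 (adjusted p = 0.0512). Averaged over the list, the log2 CPM per mouse was 5.11 ± 0.10 in PL and 5.07 ± 0.09 in PL with GKA (SD, n = 8 each), against 5.55 and 5.39 in PP and 5.17 and 5.14 in LL, so that PL lay close to LL. The list's median was -0.10 when counts were corrected for transcript length.

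ER stress genes had a median of -0.22 over 20 tested, with no call (0 of 20, 9 at an unadjusted p below 0.05 below and 1 above, beside 5.5% and 4.89% of all genes). Creld2, an ER chaperone-like protein, had a value of -0.66 ± 0.22 (adjusted p = 0.219) and Trib3, a target of ATF4, one of 0.51 ± 0.17 (adjusted p = 0.186). Genes of PPAR-alpha, the regulator of fatty acid oxidation, had no call among 17 and a median of -0.15. Of their values 15 were below 0, beside 5820 of all 11477 genes, and these signs were not tested. Pdk4, which shuts off pyruvate oxidation, was at -0.88 ± 0.32 (adjusted p = 0.269).

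Of 15 core clock genes 1 was called, Cry2, and the median was -0.03. At an unadjusted p below 0.05 in edgeR there were 5 above the midpoint and 4 below, beside 4.89% and 5.5% of all genes. Cry2 was not called with the clock covariate described next (0.30, adjusted p = 0.0698 in edgeR). As Cry2 is itself a core clock gene, a covariate drawn from clock genes is no independent check on it. Values ran in opposite directions, with Cry1, a repressor, at -0.62 ± 0.19 (adjusted p = 0.151), and Nfil3 and Dbp, of the clock output list, at -0.55 ± 0.17 and 0.81 ± 0.30 (adjusted p = 0.158 and 0.279). A component fitted to 25 clock genes averaged -0.63 for PP without GKA, in units of its SD, 0.42 for PL and 0.60 for LL, and with GKA -0.82, 0.49 and 0.06. With it as a covariate 39 genes were called, 26 of the 45 among them (24 above and 2 below), and 14 of the cholesterol list.

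**Figure D5:**
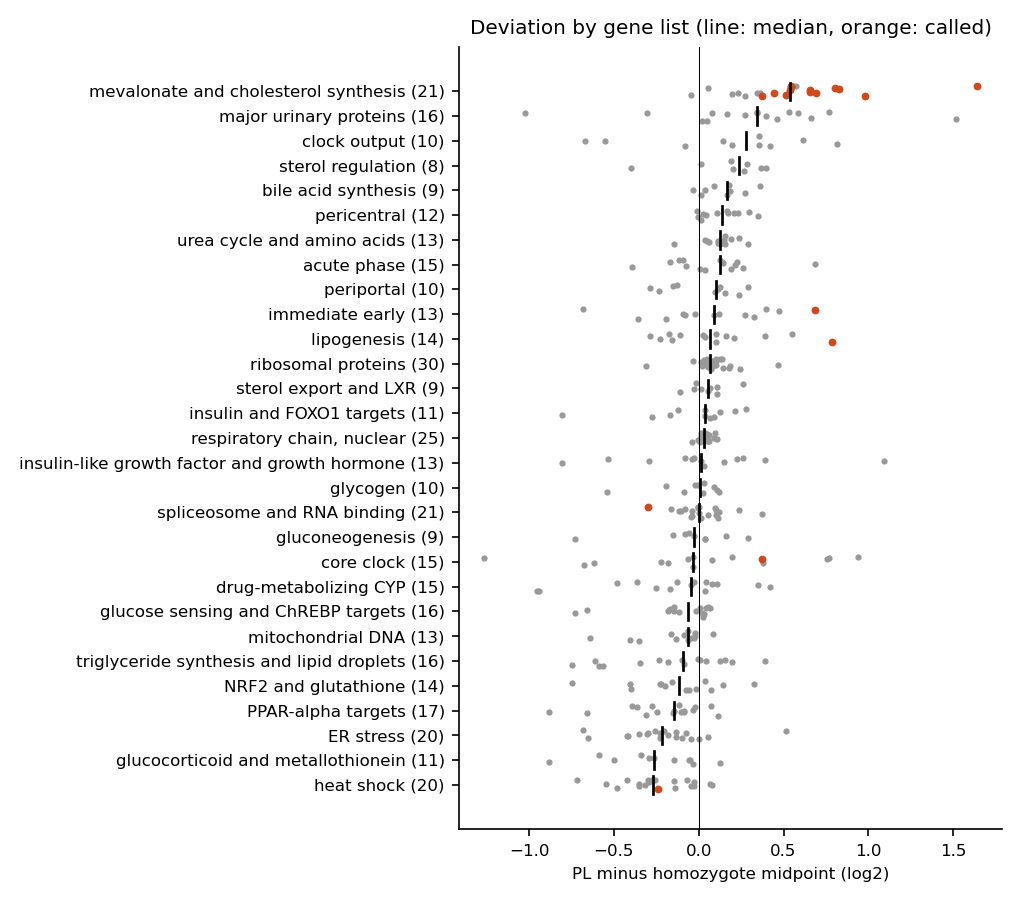
Deviation (log2) of each tested gene by pathway list, cell type markers left out, with the median as a line, called genes in orange and the number of genes tested in brackets. The cholesterol synthesis list has the highest median, 0.54, and 13 of its 21 genes are called. Of the pathway lists drawn, heat shock has the lowest, -0.27, with 1 call.

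To be called outside both homozygotes a gene had to differ from PP and from LL in the same direction, judged by the larger of the 2 p-values. No gene passed (0%; smallest adjusted p = 0.203 in edgeR), with 130 genes above both (1.13%) and 147 below both (1.28%) at an unadjusted p below 0.05, and 4 calls in DESeq2. Taken alone, PL differed from PP for 221 genes (1.93%) and from LL for 49 (0.427%). Under a looser rule, set after the data were seen, in which each comparison had to pass on its own adjustment, 10 genes (0.0871%) lay outside both. Msmo1, Bmf, Mvk, Idi1, Fdft1, Nsdhl and Sqle were above, and Sh3bgrl, Ap3s1 and Kdsr below. All 10 were among the 45. Msmo1 exceeded PP by 0.66 ± 0.15 and LL by 0.99 ± 0.14, and Ap3s1 was below PP by -0.29 ± 0.08 and below LL by -0.41 ± 0.08.

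LL and PP differed for 425 genes (3.7%), and 6 of these were among the 45, with Plpp3, Nr2f2, Npc1 and Pmvk above the midpoint and Cdkn1a and Ubfd1 below it. On a scale from 0 at PP to 1 at LL, PL had a median position of 0.68 over the 425 genes (quartiles 0.46 and 0.95), with 112 genes between 0 and 0.5, 212 between 0.5 and 1, 89 beyond LL and 12 beyond PP. The position uses the same homozygotes that chose the genes and is a description. The glucose producing enzyme G6pc1 was among the genes that differed between homozygotes, by 0.99 (adjusted p = 0.00188), and its PL value lay below the midpoint by -0.73 ± 0.19 (adjusted p = 0.073).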

How the data were processed

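Liver RNA of 56 male mice was sequenced by the authors, who took RNA with an integrity number above 6, checked reads with FastQC and quantified them with Salmon 1.4.0 on GENCODE release 26 (GRCm39). The deposited files hold estimated counts per transcript, beside effective lengths and TPM values that the authors made with Salmon. The TPM values served here only to weight the effective lengths in the length offset. The strand setting is not given in the sources used here, and 29 of the 45 called genes share exon sequence with another gene, so that such reads may be split. Estimated counts were summed by gene with GENCODE release 39, which matched 137570 of 139225 transcripts (98.81%), and rounded. Depth was 5189852 to 8093368 reads, which limits genes of low count most.

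One edgeR 4.0.16 quasi-likelihood model with 6 groups (TMM scaling, filterByExpr, robust) was fitted, with Benjamini-Hochberg adjustment over 11477 genes. It was tested on simulated data. SE is the absolute log2 value divided by the square root of F. Labels give no batch, litter or time of day, and p-values measure the spread between mice. Named were the called genes with the smallest p in each direction and those of each list. CPM of tested genes are counts scaled to the library's total over those genes, adjusted by TMM. DESeq2 1.42.0, limma 3.58.1, other scaling, no filter, mouse 7 kept, a length offset, a clock covariate and 3 groups were tried, as was leaving out each mouse. Some genes are not reported here. Members and lists were chosen with earlier results of these data known.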

Additional observations from a re-analysis of the deposited data

Results flagged for a closer look

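Within groups, 174 sets of values (24 genes and the levels of 5 lists) were checked for a mouse far from the others, and 10 had one, where chance gives about 1 in 20. The gap of that mouse to its neighbour, as a share of the group's range, was 0.633 for Moxd1 in PP (mouse 3), 0.815 in LL (mouse 46), 0.548 in PP with GKA (mouse 19) and 0.753 in LL with GKA (mouse 50), each the highest. The lowest mouse stood apart for Srsf10 (0.472) and Sh3bgrl (0.52) in LL, both mouse 43, for Kdsr in LL (0.565, mouse 46) and for Nup62 in LL with GKA (0.479, mouse 53). The heat shock level had its highest mouse apart in LL (0.535, mouse 42), and the ER stress level in PL with GKA (0.543, mouse 33).

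PP mouse 7, which was left out of the main fit, had 320 genes more than 4-fold from the mean of the other PP mice. The same count is not given for another mouse.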

How the results depend on the processing

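No paired analysis was possible because each mouse has a number of its own. The 45 calls became 86 with DESeq2, 29 with no filter on low counts and 27 with limma on CPM without logs, and 27 to 61 when each mouse was left out (27 without PL mouse 31 and 28 without PL mouse 32, both with GKA, and 29 without PL mouse 25). Calls outside both homozygotes numbered 4 with DESeq2, 1 with the length offset, 1 with the clock covariate, 10 with each comparison adjusted on its own (chosen after seeing the data), and 0 to 4 when each mouse was left out, the 4 without PL mouse 30 with GKA. Without GKA the calls were 2 with DESeq2, 9 with no filter and 186 with the offset, and with GKA 36 with DESeq2 and 9 with the offset. The difference by GKA gave 1 with DESeq2. The 425 homozygote calls became 253 with no filter, 39 with the offset and 120 with the clock covariate. Of the 45, 11 were called with the offset and 44 kept their direction, the exception being Ubfd1 (0.17). The average transcript length that the offset uses had a median SD over mice of 0.527 (log2). The heat shock median was -0.10 with the offset. The cholesterol list had between 8 and 14 calls, with medians from 0.52 to 0.61 over the settings with all mice and from 0.44 to 0.59 when each mouse was left out. The causes were not tested.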

Other observations

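Among further lists none of the deviations passed the test, with the exception of Srsf10 in the spliceosome list. Over all genes tested 5657 of 11477 were above the midpoint and 5820 below. Members of a list can move together, and the counts of signs were not tested. Ribosomal proteins had a median of 0.06 (log2), with 28 of 30 above the midpoint and 1 at an unadjusted p below 0.05 in edgeR. Nuclear genes of the respiratory chain had one of 0.03, with 23 of 25 above and 0 at such a p. Those encoded in mitochondrial DNA had a median of -0.07, with 12 of 13 below. Major urinary proteins, whose near-identical copies can share reads, had a median of 0.34 with 14 of 16 above. Genes of the urea cycle and amino acids had one of 0.13, with 12 of 13 above. Glucocorticoid and metallothionein genes had a median of -0.27, with 10 of 11 below, and one of 0.01 with GKA. Tsc22d3, a glucocorticoid target, had values of -1.08 without GKA and -0.10 with it (adjusted p = 0.181 over all mice in edgeR). Cyp3a11, a drug-metabolizing enzyme with close paralogs, was at -0.95 (adjusted p = 0.0983), with 6 of 16 PL mice below every homozygote.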
